A study of Gallus gallus with 38 samples.

Results

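*MAL*, *AQP8*, *CA4*, *PADI3*, *PLET1* and *GJB2* are 6 of the 11528 named genes measured in the cecum and jejunum mucosa of broilers, each with 1 of the 18308 probe sets. They were chosen by their ratio of cecum to jejunum signal in these same arrays, so their difference between the tissues is described here without a test. The ratio alone did not choose them: by fold change ratio (FCR, the ratio of the tissues after averaging log2 signals) they took ranks 3, 4, 6, 12, 13 and 16 towards the cecum. The genes between and above them that were not chosen are *CBS*, *LOC100857820*, *NOXO1*, *SLC38A4*, *HOXA10*, *PON1*, *SLC26A4*, *SELENBP1*, *ATP6V0D2* and *LY6CLEL*. *GJB2* was the lowest of the 6 with an FCR of 12.2, and the next gene down, *TFCP2L1*, had an FCR of 12.1.

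Both tissues came from the same 19 male Ross 308 broilers, killed at 42 days (6 weeks in the labels) after one standard 3-phase diet and vaccination against coccidiosis and viral diseases. No group was treated, so the tissue was the one factor, and birds numbered from 1 to 19 in the labels link a cecal with a jejunal array. The labels' treatment text speaks of 38 birds, which would give each array a bird of its own, so that all values within a bird (differences, counts of birds and the correlation between tissues) hold only if the numbers pair the arrays. The mucosa was scraped off after rinsing, and total RNA was hybridized to Chicken Gene arrays, with 1 array for each tissue of a bird. Values are normalized log2 signals, on which a difference of 1 is a 2-fold change. The number of arrays limits the precision.

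The cecum of the chicken is a fermentation chamber that receives fine digesta and urine from the colon and takes up water, salts and bacterial acids. In the mammalian large intestine, mature cells at the mucosal surface carry water channels, carbonic anhydrases and ion exchangers on the membrane facing the lumen, while cells divide deeper in the crypts. *AQP8* is a water channel, and *CA4* is a carbonic anhydrase held on the outer cell surface by a lipid (GPI) anchor, where it makes bicarbonate. *MAL* is a small membrane-spanning protein of lipid rafts, known in canine kidney cells for carrying proteins to the apical membrane, and *PLET1* is a further GPI-anchored protein, known in the mouse from the placenta and hair follicle. *GJB2* (connexin 26) builds gap junction channels between epithelial cells, and *PADI3* changes arginine in proteins into citrulline, a function studied in mammalian hair and skin.

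Scrapings carry no information on position in the mucosa, so whether these genes are expressed at the surface was not measured. Defining markers of epithelium had high signals in both tissues. The mean log2 signal of *EPCAM*, an adhesion molecule of epithelial cells, was 11.53 in the cecum and 11.44 in the jejunum, and that of *CDH17*, the intestinal cadherin, 10.63 and 10.60 (adjusted p = 0.34 and adjusted p = 0.83 from limma). *ELF3*, a transcription factor of epithelia, was at 9.75 and 9.19 (adjusted p = 1.3e-06, limma). Of 12 measured epithelial markers, 10 were no DET. A DET (differentially expressed transcript) had an FCR of 2 or more and passed limma at an adjusted p of 0.05, which 4.52% of all named genes did towards the cecum and 4.09% towards the jejunum. *CDX2* was a DET of the cecum and *HNF4G* of the jejunum. At any FCR, 8 of the 12 passed limma towards the cecum and 1 towards the jejunum, against 29.1% and 22% of all named genes, and the median difference of the list was 0.33 towards the cecum. Of 6 measured keratinocyte markers, 0 were DETs of the cecum and 1 was a DET of the jejunum. At any FCR, 1 passed limma towards each tissue. The one towards the cecum was *TP63* (difference 0.48, adjusted p = 1.3e-04, limma, higher there in 18 of 19 birds). The basal keratin *KRT5* had a mean signal of 3.72 in the cecum.

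The array least like the others of its tissue was that of bird 3 in the cecum and that of bird 19 in the jejunum. Signals of the cecal array of bird 3 correlated with the other cecal arrays by a mean r of 0.919, and those of the jejunal array of bird 19 with the other jejunal arrays by 0.949, while the other 36 arrays had a mean r of at least 0.957. Some of the ranges and correlations that rest on these arrays are given with and without them. Apart from the pair of *CA4* and *PLET1*, the single genes most like each chosen gene in the cecum are given with all birds only. The same holds for the genes shared among those most alike and for correlations with neighbours on the chromosome.

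Among the surface proteins for water and bicarbonate, the cecal log2 signal of *AQP8* ran from 7.78 (bird 5) over a median of 10.34 to 11.52 (bird 13). In the jejunum it ran from 4.18 (bird 19) over 4.78 to 6.35 (bird 8), with the next highest bird at 5.03. The tissues did not overlap, and the lowest cecal array lay 1.43 above the highest jejunal one. The means were 10.07 ± 0.93 and 4.82 ± 0.44 (SD, n = 19 birds each), an FCR of 37.9.

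*CA4* ran from 9.46 (bird 3) over 10.67 to 11.47 (bird 13) in the cecum and from 4.73 (bird 4) over 6.04 to 10.15 (bird 19) in the jejunum. Here the tissues overlapped through 1 array: the jejunum of bird 19 reached the cecal range, whereas the second highest jejunal array, from bird 11, was at 8.37. With means of 10.71 ± 0.46 and 6.34 ± 1.33 (SD, n = 19) the FCR was 20.6, but within a bird the difference ran from 0.94 in bird 19 to 6.19 in bird 13.

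Of the membrane proteins, *MAL* ran from 7.95 (bird 17) over 9.50 to 10.24 (bird 13) in the cecum and from 2.80 (bird 9) over 3.09 to 4.37 (bird 8) in the jejunum. Every jejunal array other than that of bird 8 was at or below 3.27, and the gap of 3.58 between the tissues was wider than for the other 5 genes. The means of 9.35 ± 0.63 and 3.14 ± 0.33 (SD, n = 19) gave an FCR of 73.9.

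*PLET1* ran from 11.18 (bird 3) over 12.04 to 12.45 (bird 13) in the cecum and from 5.87 (bird 5) over 8.46 to 11.52 (bird 19) in the jejunum. As with *CA4*, the jejunal array of bird 19 lay inside the cecal range, and the next highest, from bird 9, was at 9.31. The means were 12.03 ± 0.33 and 8.29 ± 1.27 (SD, n = 19) and the FCR was 13.3.

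*GJB2* ran from 5.86 (bird 5) over 8.46 to 9.95 (bird 18) in the cecum and from 3.42 (bird 7) over 4.83 to 5.43 (bird 13) in the jejunum. No array overlapped, though the gap was 0.43, and bird 5 differed between its tissues by 1.23 against 5.45 in bird 7. The means were 8.31 ± 1.01 and 4.70 ± 0.48 (SD, n = 19), an FCR of 12.2.

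The enzyme *PADI3* ran from 7.62 (bird 17) over 8.70 to 9.15 (bird 7) in the cecum and from 4.06 (bird 14) over 4.90 to 5.55 (bird 8) in the jejunum. There was no overlap, with a gap of 2.07. The means were 8.61 ± 0.40 and 4.86 ± 0.35 (SD, n = 19) and the FCR was 13.4.

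**Figure D1:**
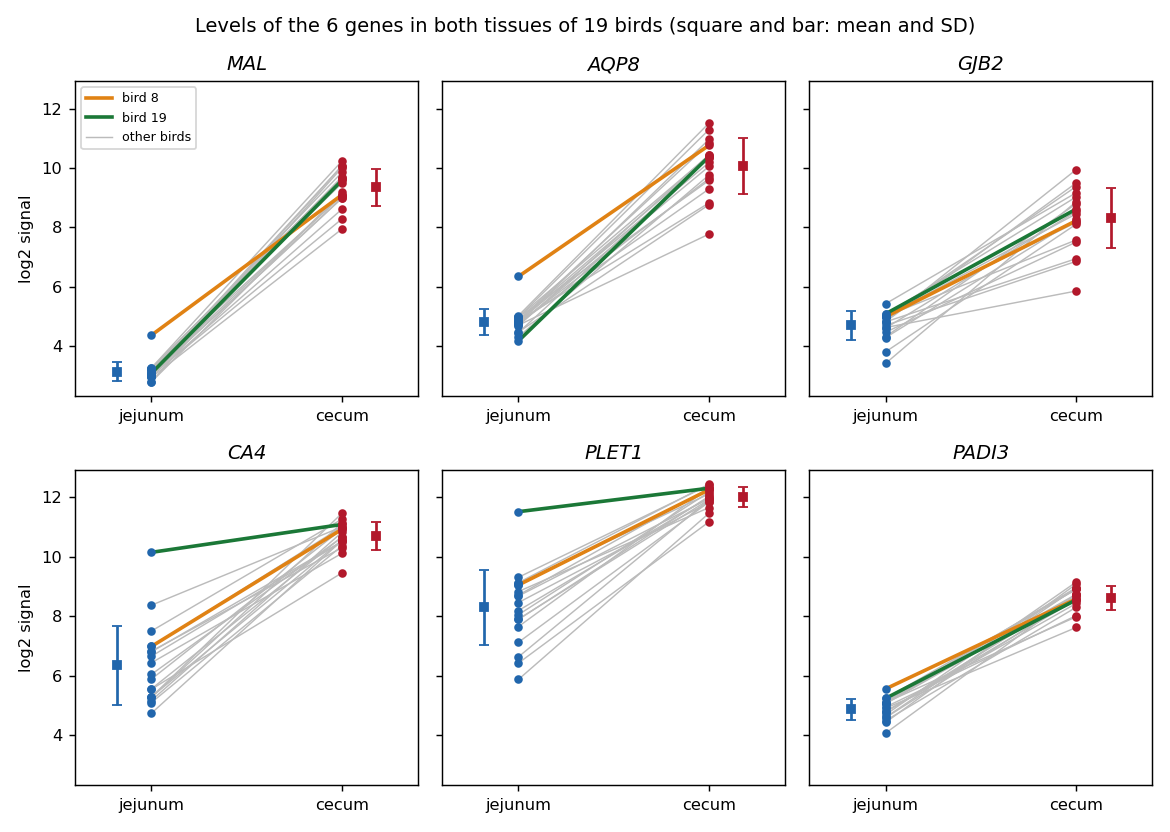
Log2 signal of each gene in the jejunum and cecum, with a line for each of the 19 birds and a square with a bar for the mean and SD. Bird 8 (orange) was highest in the jejunum for *MAL* (4.37), *AQP8* (6.35) and *PADI3* (5.55), and bird 19 (green) for *CA4* (10.15) and *PLET1* (11.52).

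In 19 of 19 birds each of the 6 genes had its higher signal in the cecum. For 4 of them every cecal array lay above every jejunal array, a state that 1.55% of all named genes reached, but nothing can be read from that count because the same contrast chose the genes. Other cells of the scrapings differed between the tissues as well. As background, 4.52% of all named genes were DETs of the cecum and 4.09% of the jejunum. Of 8 smooth muscle markers 6 were DETs of the cecum, where their mean log2 signal per array ran from 6.76 to 8.58 against 4.98 to 7.94 in the jejunum, and of 11 T cell markers 5 were DETs of the jejunum, with list means of 7.09 to 7.97 there and 5.94 to 7.02 in the cecum. Their part in the levels of the 6 genes was not tested, and in such bulk samples fewer cells of a type and less RNA per cell cannot be told apart.

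The genes differed in how far birds diverged. In the cecum the highest bird exceeded the lowest 17.0-fold for *GJB2* and 13.4-fold for *AQP8*, 4.89-fold for *MAL* and 4.03-fold for *CA4*, and 2.89-fold for *PADI3* and 2.41-fold for *PLET1*. Without bird 5 the range was 8.51-fold for *GJB2* and 6.73-fold for *AQP8*, and without bird 3 it was 2.55-fold for *CA4*. Among the 8048 other named genes with a mean cecal signal of at least 5, the SD of *GJB2* and *AQP8* exceeded that of 99.7% and 99.6% (99.5% and 99.3% without bird 5), and the SD of *PLET1* that of 66.3%. In the jejunum *PLET1* and *CA4* spanned 50.2-fold and 42.8-fold, each with an SD above that of 99.8% of all named genes, and without bird 19 they spanned 10.9-fold and 12.5-fold (SD above that of 99.5% and 99.4%). The other 4 genes spanned 2.81-fold (*PADI3*) to 4.50-fold (*AQP8*), and without bird 8 *MAL* went from 2.97-fold to 1.39-fold and *AQP8* to 1.80-fold. *PLET1* had a signal of at least 5 in the jejunum of 19 birds and *CA4* in 18, against 8 for *PADI3*, 6 for *GJB2*, 2 for *AQP8* and 0 for *MAL*.

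On the cecal side, the same birds recurred at the ends of the range. Bird 13 was highest for *MAL*, *AQP8*, *CA4* and *PLET1*, and bird 9 was above the median for all 6 genes. The lowest levels were shared among 3 birds: bird 5 was lowest for *AQP8* and *GJB2*, bird 3 for *CA4* and *PLET1*, and bird 17 for *MAL* and *PADI3*, with all 6 genes below the median in bird 17. The mean of a list of genes that mark mature surface cells of the mammalian colon was lowest in birds 5, 17 and 3, at 7.56, 8.01 and 8.11 against 8.16 to 9.06 in the other 16 birds. Their arrays differed from each other in other cells. Bird 5 had the highest crypt and proliferation list (8.00, other 16 birds 7.18 to 7.77) and the highest endothelium list (7.08, other 16 birds 6.13 to 7.01), bird 17 the lowest epithelium list (8.62, other 16 birds 8.72 to 9.23), and bird 3 the lowest smooth muscle list (6.76, other 16 birds 7.37 to 8.58). The part of these cells in the low levels was not tested.

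To see which of the genes move together between birds, Pearson's r was computed for the 15 pairs over the 19 cecal arrays. Each had a two-sided permutation test, with adjustment over the 15 pairs. The ratio of the tissues does not use this co-variation. The genes were, however, chosen with earlier results of these data known, and whether co-variation entered that choice is not known. Of the pairs, 10 passed the test, all with a positive r, and these were the 10 pairs that do not hold *PADI3*. Background shares were taken over the other named genes with a mean cecal signal of at least 5. An r of at least 0.5 was reached by 12.2% of them with *MAL*, 5.31% with *AQP8*, 12.5% with *GJB2*, 31.3% with *CA4*, 28.8% with *PLET1* and 5.73% with *PADI3*. Each of *MAL*, *AQP8*, *GJB2*, *CA4* and *PLET1* reached that value with the other 4. For *CA4* and *PLET1* such an r was therefore common among genes of that signal. Without bird 3 these shares were 17.5% for *CA4* and 15.2% for *PLET1*, 14.7% for *MAL*, 10.7% for *AQP8* and 9.48% for *GJB2*.

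*CA4* and *PLET1*, both GPI-anchored, were the closest pair (r = 0.96, Spearman's rho = 0.91, adjusted p = 1.5e-04 from the permutation test, the unadjusted p of 1.0e-05 being the smallest that the permutations can give). *PLET1* ranked 1 of 8048 genes in likeness to *CA4*, and *CA4* ranked 2 in likeness to *PLET1*. Without birds 3 and 13, the farthest for *CA4*, r was 0.93, and without bird 3 alone r was 0.93 with ranks of 4 and 3.

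*MAL*, *AQP8* and *GJB2* also went together. *MAL* and *AQP8* had r = 0.79 (rho = 0.73), *MAL* and *GJB2* r = 0.79 (rho = 0.83), and *AQP8* and *GJB2* r = 0.75 (rho = 0.67), with adjusted p = 4.5e-04, adjusted p = 4.5e-04 and adjusted p = 0.0011 from the permutation test. After leaving out the birds farthest for the first gene of each pair (5 and 17 for *MAL*, 1 and 5 for *AQP8*), r was 0.67, 0.67 and 0.59.

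The pairs of *CA4* or *PLET1* with these 3 genes had a lower r, from 0.51 to 0.74. *GJB2* had r = 0.74 with *CA4* (adjusted p = 0.0011, permutation test) and 0.70 with *PLET1* (adjusted p = 0.003), and *MAL* 0.64 (adjusted p = 0.0073) and 0.62 (adjusted p = 0.0086). *PLET1* and *GJB2* had r = 0.46 without birds 3 and 5 (unadjusted p = 0.064, permutation test) and r = 0.36 without birds 3, 5 and 17 (adjusted p = 0.19), where the call was lost. *AQP8* had r = 0.51 with *CA4* (adjusted p = 0.04, permutation test) and 0.54 with *PLET1* (adjusted p = 0.031), which without bird 5 were 0.43 (adjusted p = 0.12) and 0.40 (adjusted p = 0.15). Leaving out bird 13 gave r = 0.42 and 0.48 (adjusted p = 0.12 and adjusted p = 0.076, permutation test), and both calls were also lost without bird 9 or bird 18, the one with *CA4* also without any 1 of birds 4, 8, 12 or 17 (adjusted p from 0.051 to 0.071). Without bird 3, in which *AQP8* was above its median while *CA4* and *PLET1* were lowest, these pairs had r = 0.77 and 0.76.

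*PADI3* stood outside, with r between -0.26 (*CA4* and *PLET1*) and 0.16 (*MAL*) and adjusted p between 0.35 and 0.82 from the permutation test. Its Spearman's rho was negative with all 5 other genes, from -0.34 to -0.17. The highest cecal signals of *PADI3* were those of birds 7, 4 and 1, and of these birds 4 and 1 were below the median for *AQP8* and *MAL*.

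**Figure D2:**
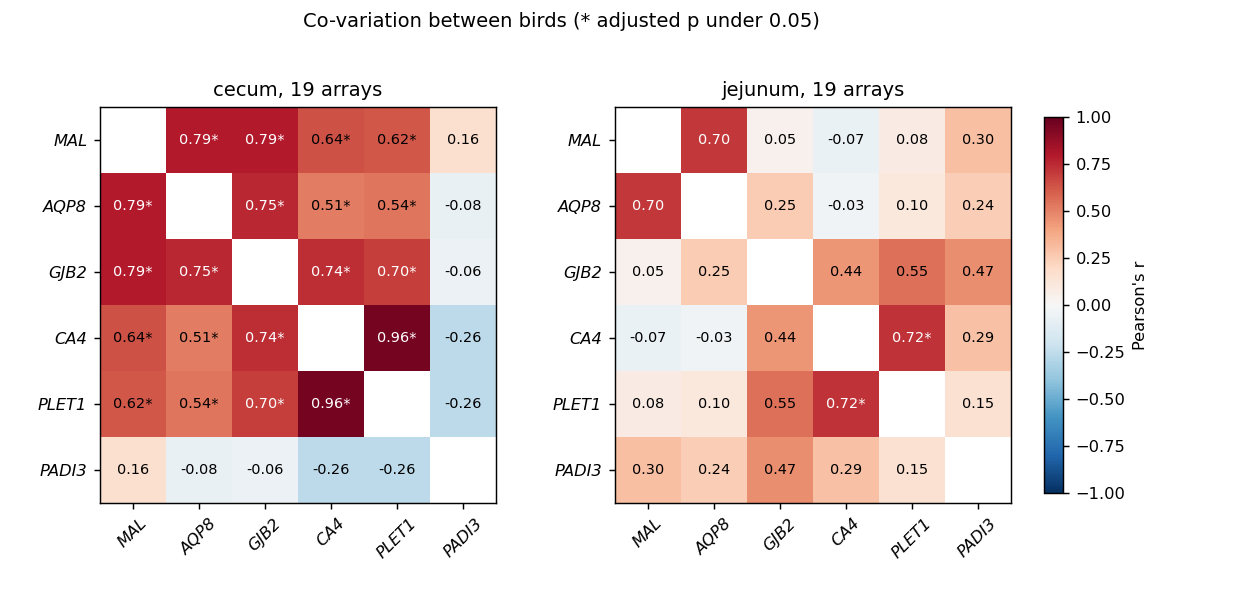
Pearson's r between the 6 genes over the 19 cecal arrays (left) and the 19 jejunal arrays (right), with an asterisk where the adjusted p of the permutation test was under 0.05. The 10 cecal pairs without *PADI3* carry an asterisk (r from 0.51 to 0.96), against 1 jejunal pair, *CA4* and *PLET1* (r = 0.72). In the jejunum only these 2 genes had a mean signal of at least 5.

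In the jejunum, 1 of the 15 pairs passed the same test. Only *CA4* and *PLET1* had a mean jejunal signal of at least 5 (6.34 and 8.29). *MAL* (3.14), *AQP8* (4.82), *PADI3* (4.86) and *GJB2* (4.70) were below it. Every pair other than *CA4* with *PLET1* thus holds a gene of low signal, and a missing call there says little about co-variation. *CA4* and *PLET1* had r = 0.72 (rho = 0.64, adjusted p = 0.0099 from the permutation test), and without bird 19 r was 0.52 (adjusted p = 0.17). As background, 8.6% of the named genes with a mean jejunal signal of at least 5 had an r of at least 0.5 with *CA4* in the jejunum. The share was 6.37% with *PLET1*, 4.9% with *GJB2*, 4.2% with *PADI3*, 3.52% with *MAL* and 2.78% with *AQP8*. *PLET1* and *GJB2* had r = 0.55 (adjusted p = 0.13) and rho = 0.66 (adjusted p = 0.03, permutation test). *MAL* and *AQP8* had r = 0.70 (adjusted p = 0.17, permutation test) but a rho of -0.0044, and r was -0.29 without birds 8 and 9. Whether the correlations of the cecum differ from those of the jejunum was not tested.

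**Figure D3:**
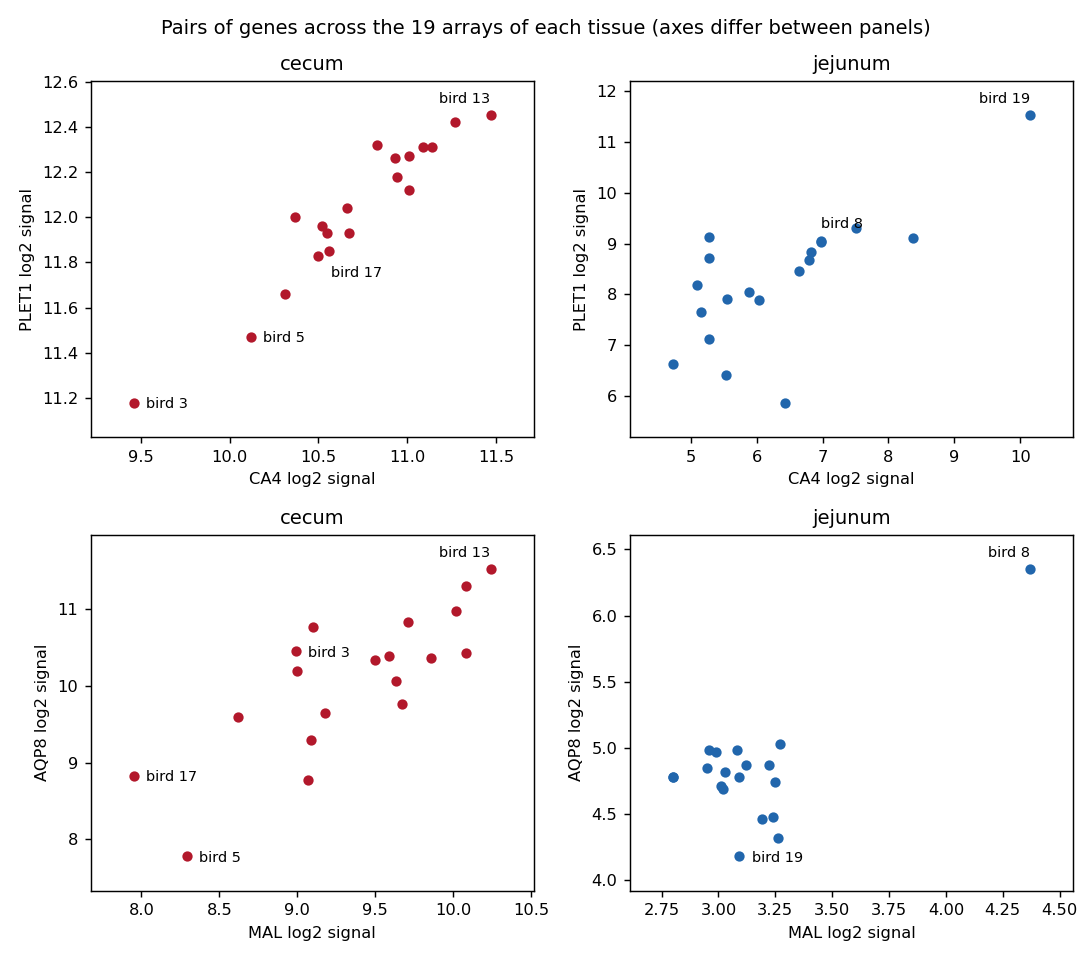
Log2 signals of *CA4* against *PLET1* and of *MAL* against *AQP8*, each point 1 bird, in the cecum (left) and the jejunum (right). The cecal points run along a line in both pairs, while in the jejunum bird 19 (*CA4* 10.15, *PLET1* 11.52) and bird 8 (*MAL* 4.37, *AQP8* 6.35) lie apart from the others.

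The jejunal arrays of birds 8 and 19 carried different cecal genes. Of the 16 genes with an FCR of at least that of *GJB2*, 7 had their highest jejunal signal in bird 8 and 6 in bird 19, against 9.76% and 14.8% of all named genes. These counts are a description and no support, because both birds were looked at for their high signals of the 6 genes, which are among the 16. In bird 8 these were *MAL*, *AQP8* and *PADI3* together with *CBS* (8.10 against at most 5.44 in the other 17 birds, bird 19 apart), *LOC100857820* (7.66 against 5.98), *SLC38A4* (5.97 against 5.46) and *LY6CLEL* (7.19 against 5.86). In bird 19 they were *CA4* and *PLET1* together with *HOXA10* (6.31 against at most 4.22 in the other 17 birds, bird 8 apart), *SLC26A4* (5.34 against 3.17), *ATP6V0D2* (5.27 against 3.23) and *SELENBP1* (7.76 against 7.32). Bird 19 was at the same time the lowest jejunum for *AQP8* (4.18) and had a *MAL* signal of 3.09, the median of all birds.

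Lists of immune and dividing cells also differed in these arrays, and those of T cells and of crypt and proliferation genes were clearly high in both. The B and plasma cell list of bird 19 had a mean of 8.66 in the jejunum, against 5.91 to 6.83 in the other 17 birds. That of bird 8, at 6.84, was barely above this range. The macrophage list had a mean of 9.70 in bird 8 and 9.19 in bird 19, the latter within the range of the other 17 birds (8.13 to 9.32). T cell lists were at 7.86 and 7.97 in birds 8 and 19 (other 17 birds 7.09 to 7.69), and crypt and proliferation lists at 7.21 and 7.39 (other 17 birds 5.65 to 6.93). The mammalian surface list of bird 19 was also above the range of these 17 birds (7.93, others 6.99 to 7.63), and that of bird 8 was within it (7.45). The part of these cells in the levels of the 6 genes was not tested.

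Cecal and jejunal levels of a bird went together for 1 of the 6 genes. The share of all named genes for which they do so was not computed. For *PLET1* the cecal and jejunal signals correlated over the 19 birds (r = 0.67, rho = 0.65, p = 0.002 and adjusted p = 0.012 over the 6 genes, permutation test), with birds 3 and 5 the lowest in both tissues. Without birds 3 and 5, the farthest in the cecum, r was 0.46, and without bird 5 alone r was 0.60 (adjusted p = 0.078, permutation test), the one bird whose removal lost the call. Without birds 5 and 19, the farthest in the jejunum, r was 0.63 (unadjusted p = 0.0061, permutation test). The other 5 genes had r between -0.14 (*PADI3*) and 0.28 (*AQP8*) and did not pass (adjusted p from 0.5 to 0.89, permutation test).

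The 6 genes were then set against the mean signal of 14 lists of cell type, surface and crypt markers over the cecal arrays, which gave 84 pairs and 9 calls, all positive. The mammalian surface list, from which these genes were left out, correlated with 5 of the 6: r = 0.87 with *MAL*, 0.86 with *GJB2*, 0.84 with *AQP8*, 0.80 with *CA4* and 0.79 with *PLET1* (adjusted p from 4.2e-04 to 0.0013, permutation test). The list was chosen with earlier results of these data known. It also holds genes that are among those most like some of the 6, as named below, so these values are a description. Of the other named genes with a mean cecal signal of at least 5, 13.5% had an r of at least 0.5 with this list. *PADI3* had r = -0.12 with it (adjusted p = 0.84, permutation test). In contrast, *PADI3* was the one gene to rise with the crypt and proliferation list, which holds stem cell and cell division genes (r = 0.63, rho = 0.71, adjusted p = 0.031, permutation test). Of the other named genes with a mean cecal signal of at least 5, 12.3% had an r of at least 0.5 with that list. The call of *PADI3* was lost when any 1 of birds 1, 4, 12, 16 or 17 was left out (adjusted p up to 0.068). The other 5 genes had r from -0.52 (*AQP8*, adjusted p = 0.13) to -0.10 (*MAL*) with the crypt list. Without bird 17 *AQP8* had r = -0.69 with that list and passed (adjusted p = 0.013, permutation test). With the T cell list *PADI3* had r = -0.60, with an adjusted p that rounds to 0.05 and did not pass the permutation test. The pair did pass with Spearman's rho (-0.68, adjusted p = 0.018), after quantile normalization (adjusted p = 0.026) or centring of the arrays (adjusted p = 0.041) and with averaged probe sets (adjusted p = 0.043, permutation tests).

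The epithelium list passed with *MAL* (r = 0.87, adjusted p = 4.2e-04, permutation test), *GJB2* (r = 0.65, adjusted p = 0.029) and *CA4* (r = 0.62, adjusted p = 0.034). *PLET1* had r = 0.59 with it (adjusted p = 0.055), *AQP8* 0.48 (adjusted p = 0.17) and *PADI3* 0.21 (adjusted p = 0.71). Of the other named genes with a mean cecal signal of at least 5, 15.4% had an r of at least 0.5 with this list. Without single birds the call was lost for *CA4* (any 1 of birds 1, 2, 5, 9, 11, 13 or 18) and for *GJB2* (any 1 of birds 11, 17 or 18), and it was gained for *PLET1* (any 1 of birds 7, 8 or 19). After quantile normalization *CA4* (r = 0.48, adjusted p = 0.14, permutation test) and *GJB2* (r = 0.57, adjusted p = 0.075) did not pass either, and with arrays centred on their median *PLET1* did (adjusted p = 0.021). After removing the part of each signal that follows the epithelium list, 5 of the 15 pairs passed: *CA4* with *PLET1* and with *GJB2*, and the 3 pairs among *MAL*, *AQP8* and *GJB2*. *MAL* and *CA4* then had r = 0.25 (adjusted p = 0.35, permutation test). The other 11 lists, among them squamous keratinocyte, goblet cell, macrophage, smooth muscle and endothelium, passed with 0 of the 6 genes over all 19 birds. That holds for Pearson's r of the deposited signals with a single probe set for each gene, and some pairs passed with Spearman's rho.

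By Pearson's r, negative relations of *CA4* and *PLET1* to the endothelium and fibroblast lists passed only in sets of arrays that left out bird 3, and that of *PLET1* to the fibroblast list did not pass in one of these, without birds 3, 5 and 17 (adjusted p = 0.083, permutation test). Without bird 3 alone, 17 of the 84 pairs passed, among them *CA4* and *PLET1* with the endothelium list (r = -0.86 and r = -0.82, adjusted p = 2.4e-04 and adjusted p = 4.2e-04, permutation test), against r = -0.43 and -0.44 (adjusted p = 0.22 for each) with all birds. The fibroblast list likewise had r = -0.67 with *CA4* and -0.63 with *PLET1* without bird 3, and -0.19 and -0.20 with it. The share of all named genes that reach such values with either list without bird 3 was not computed. Spearman's rho over all 19 birds, which weighs a far value less, was -0.63 between *CA4* and the endothelium list (adjusted p = 0.033, permutation test) and -0.58 between *PLET1* and that list (adjusted p = 0.054). *AQP8* likewise had rho = -0.63 with the endothelium list (adjusted p = 0.033, permutation test), against r = -0.55 (adjusted p = 0.09). Without bird 6 its r with that list was -0.63 and passed (adjusted p = 0.044, permutation test). *GJB2* passed without bird 3 with the endothelium list (r = -0.65, adjusted p = 0.024) and the smooth muscle list (r = -0.62, adjusted p = 0.04, permutation test).

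**Figure D4:**
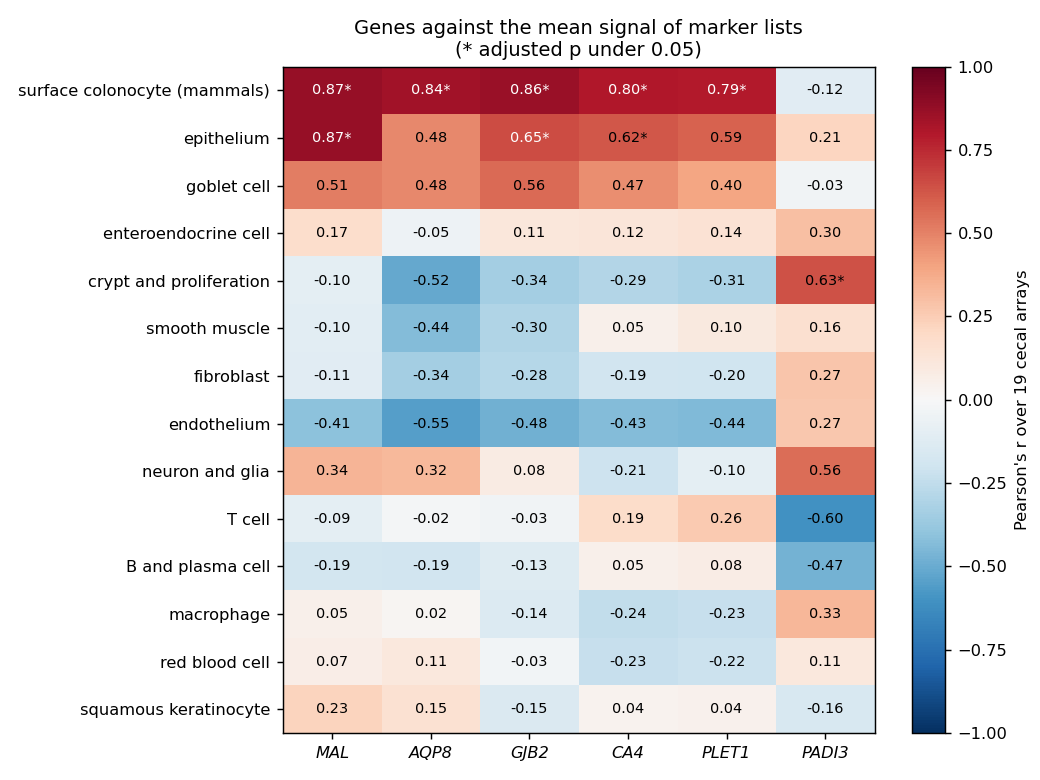
Pearson's r of each gene (columns) with the mean log2 signal of 14 marker lists (rows) over the 19 cecal arrays, with an asterisk where the adjusted p over the 84 pairs was under 0.05. The surface list carries asterisks for 5 genes (r from 0.79 to 0.87) and the crypt list for *PADI3* alone (r = 0.63).

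The single genes most like each of the 6 over the cecal arrays, ranked among 8048 named genes by r with no test, differed between these genes. Closest to *MAL* were *PAQR5* (r = 0.95), *ABHD17C* (0.91) and *LIMK2* (0.88). *AQP8* was closest to *SCNN1A*, the alpha subunit of the epithelial sodium channel (0.87), the chloride and bicarbonate exchanger *SLC26A3* (0.86) and *TMEM37* (0.86), and *GJB2* to *ENTPD5* (0.90), *KRT40* (0.90) and again *SCNN1A* (0.89). *SCNN1A* and *SLC26A3* belong to the mammalian surface list, as do *TMPRSS2* and *CDHR2*, named next. *CA4* had *PLET1* (0.96), *MFSD9* (0.95) and *SPPL2A* (0.95) nearest to it, and *PLET1* had *GRTP1* (0.97), *CA4* (0.96) and the surface protease *TMPRSS2* (0.94). For *PADI3* they were *C1orf43* (0.86), the RNA helicase *DHX37* (0.84) and *NUDCD2* (0.82).

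Of the 50 genes most like each, *CA4* and *PLET1* shared 29, *AQP8* and *GJB2* 17, and *MAL* 12 with each of *AQP8* and *GJB2*. *MAL* and *CA4* shared 1, and *PADI3* shared 0 with any of the other 5. Among the 50 genes most like *AQP8*, 13 were DETs of the cecum and 13 of the jejunum, for *CA4* and for *PLET1* 4 and 4, for *GJB2* 13 and 8, for *MAL* 8 and 2, and for *PADI3* 6 and 1. Of all 11528 named genes, 4.52% were DETs of the cecum and 4.09% of the jejunum. The shares among the 8048 genes compared, which were selected by their cecal signal, were not computed, so these counts have no matching background. The highest mean r over the 6 genes was that of *CDHR2* (0.69), a cadherin of the brush border that was no DET, followed by *CALCOCO2* (0.67), *ENTPD5*, *SCNN1A* and *UGP2* (0.66 each).

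Relatives of the 6 genes, listed by family and not by their ratio, were compared between tissues with limma over all 18308 probe sets. These lists, and those of functions below, were written with earlier results of these data known. In the family of *MAL*, whose members share a membrane domain called MARVEL, 0 of 12 measured genes were DETs, against 8.61% of all named genes. At any FCR, 4 passed limma towards the cecum and 4 towards the jejunum (all named genes 29.1% and 22%), the former including *MAL2* (0.78, adjusted p = 7.3e-10). The members with the highest mean signal, *CMTM4* (cecum minus jejunum -0.37 ± 0.09 SE, adjusted p = 7.6e-04, limma, above 0 in 3 of 19 birds) and *CMTM3* (0.42 ± 0.13 SE, adjusted p = 0.0052, above 0 in 16 of 19 birds), lay on opposite sides.

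Of 7 aquaporins, 1 was a DET on each side, against 4.52% (cecum) and 4.09% (jejunum) of all named genes. *AQP1*, the water channel of vessels and many epithelia, was a DET of the cecum (7.80 ± 0.65 against 5.82 ± 0.85, SD, n = 19, FCR 3.95, adjusted p = 1.5e-09, limma), and *AQP7*, which also carries glycerol, in the jejunum (7.74 ± 1.09 against 3.81 ± 0.36, FCR 15.3, adjusted p = 2.9e-17). The other 5, among them *AQP3* and *AQP12A*, had mean signals under 5 in both tissues. *AQP4* and *AQP3*, water channels of the mammalian colon, differed by -0.15 and 0.14 between the tissues (adjusted p = 0.099 and adjusted p = 0.27, limma).

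Among 7 carbonic anhydrases, *CA2*, the soluble enzyme of the cytoplasm, was a DET of the cecum (9.75 ± 0.51 against 8.12 ± 0.52, SD, n = 19, FCR 3.09, adjusted p = 1.6e-11, limma, 19 of 19 birds). *CA2* was the 1 DET of the 7, where 8.61% of all named genes were DETs of either tissue. *CA5A* was higher in the cecum below the threshold (FCR 1.69, adjusted p = 3.8e-06) and *CA13* did not pass (difference 0.08 ± 0.09 SE, adjusted p = 0.54, limma).

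*PADI1* and *PADI2*, the relatives of *PADI3* measured here, had low signals and did not pass the test, with differences of 0.08 ± 0.10 and 0.04 ± 0.08 (SE, adjusted p = 0.59 and adjusted p = 0.76, limma). Both lie next to *PADI3* on the chromosome in the RefSeq annotation of GRCg7b, which served only for names and order.

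Of 15 connexins and pannexins, *GJA1* (connexin 43) was higher in the cecum (8.30 ± 0.52 against 7.03 ± 0.93, SD, n = 19, FCR 2.41, adjusted p = 1.1e-05, limma), a difference of 1.27 that was 0.94 when its probe sets were averaged. *PANX1*, a channel that releases ATP, was a DET of the jejunum, higher there in 19 of 19 birds (FCR 3.32, adjusted p = 1.0e-16, limma). *GJB6* (connexin 30), the neighbour and close relative of *GJB2*, had its higher signal in the cecum in 17 of 19 birds, below the threshold (6.34 ± 0.65 against 5.45 ± 0.32, FCR 1.86, adjusted p = 8.3e-06, limma). Over the cecal arrays *GJB6* followed *GJB2* with r = 0.89, and whether the probes of one detect the transcript of the other was not tested. The other 12 were no DETs, *GJD3* among them (difference 0.16 ± 0.12 SE, adjusted p = 0.28, limma). DETs were thus 1 of the 15 on each side, against 4.52% (cecum) and 4.09% (jejunum) of all named genes.

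**Figure D5:**
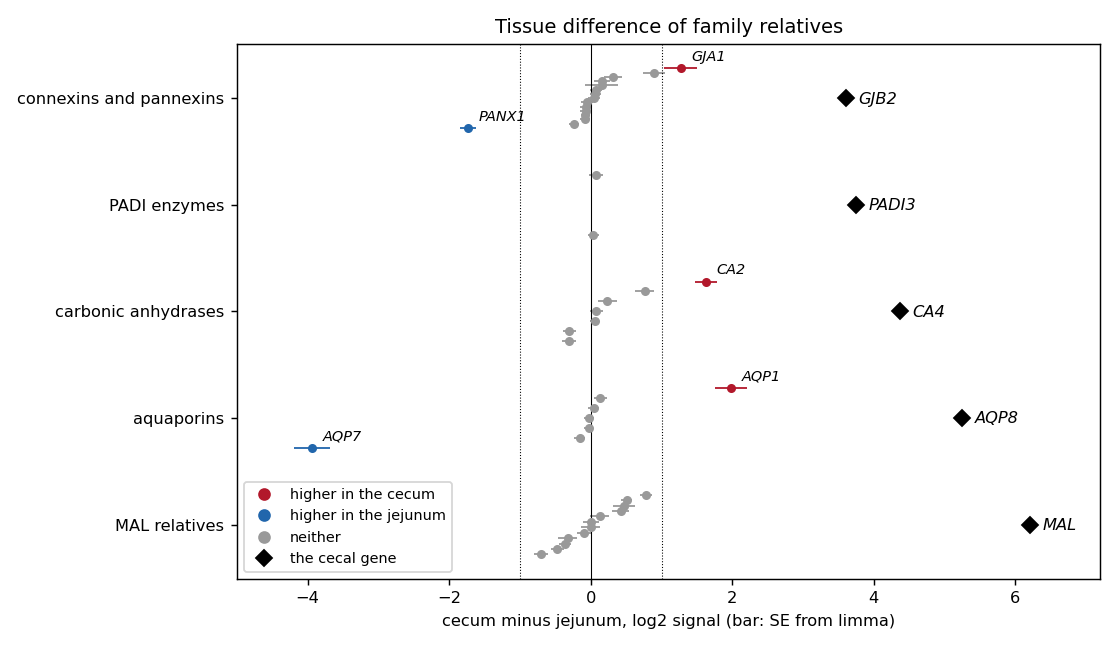
Difference of cecum minus jejunum in log2 signal, with the SE from limma, for measured relatives of *MAL*, *AQP8*, *CA4*, *PADI3* and *GJB2*, each dot 1 gene and each diamond the cecal gene of that family. Dotted lines mark a 2-fold change, and 3 relatives pass it towards the cecum (*AQP1*, *CA2*, *GJA1*) and 2 towards the jejunum (*AQP7*, *PANX1*).

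Other proteins with the GPI anchor of *CA4* and *PLET1* went both ways. Of 33 measured, 5 were DETs of the cecum and 3 of the jejunum, against 4.52% and 4.09% of all named genes. The median difference was 0.10 against 0.04 over all named genes. Towards the cecum were *LY6E* (FCR 4.17, adjusted p = 9.7e-08), *THY1* (FCR 3.41, adjusted p = 1.1e-09), *LYPD6B* (FCR 3.40, adjusted p = 1.0e-14), *CDH13* and *GPC1*, and towards the jejunum *MELTF* (FCR 17.5, adjusted p = 6.4e-24), *ENPP6* (FCR 5.38, adjusted p = 1.8e-19) and *BST1* (FCR 3.80, adjusted p = 2.2e-13, all from limma). *THY1* is also known from fibroblasts and nerves, and of 10 fibroblast markers 5 were DETs of the cecum. Of 21 genes of apical sorting and lipid rafts, the machinery of *MAL*, 1 was a DET on each side, near the shares of all named genes. These were *LGALS3* of the cecum (FCR 2.30, adjusted p = 6.3e-06, limma) and *ANXA13* of the jejunum (FCR 4.68, adjusted p = 1.2e-13), while 19 were no DETs.

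Genes on a list of bicarbonate and chloride carriers split between the tissues. Of 16 measured, 5 were DETs of the cecum, led by pendrin, *SLC26A4* (FCR 14.0, adjusted p = 4.9e-18, limma), *SLC26A3* (FCR 6.80, adjusted p = 1.4e-07) and *SLC26A1* (FCR 6.36, adjusted p = 2.6e-15). In the jejunum 2 were higher, *SLC26A9* (FCR 23.8, adjusted p = 3.0e-16, limma) and *SLC4A7* (FCR 2.39, adjusted p = 8.1e-12). The shares of DETs over all named genes were 4.52% for the cecum and 4.09% for the jejunum.

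On the list of mammalian surface colonocyte genes, 11 of 27 were DETs of the cecum and 1 of the jejunum, against 4.52% and 4.09% of all named genes. The median difference of the list was 0.56. The sodium channel subunits *SCNN1A* (FCR 9.77, adjusted p = 3.1e-17), *SCNN1B* (FCR 7.46, adjusted p = 9.1e-16) and *SCNN1G* (FCR 5.30, adjusted p = 1.8e-16, limma) were among the 11, with *SELENBP1* (FCR 14.0), *BEST4* (FCR 5.41) and *EMP1* (FCR 4.84). *TMIGD1* was higher in the jejunum (FCR 3.62, adjusted p = 1.5e-04, limma) and *GUCA2B*, the hormone uroguanylin, was higher there below the threshold (difference -0.52, adjusted p = 3.7e-04). The crypt and proliferation list was higher in the cecum as well, with 14 of 24 DETs there, 0 in the jejunum and a median of 1.25.

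Of the 24 nearest genes on the chromosome, 2 on each side of each of the 6, 16 had a probe set and 1 was a DET, against 8.61% of all named genes. This was *ARHGEF10L*, which lies 2 genes from *PADI3* (6.49 against 4.81, FCR 3.19, adjusted p = 3.8e-21, limma, 19 of 19 birds), but over the cecal arrays it had r = -0.21 with *PADI3*. *USP6*, near *CA4*, was lower in the cecum of 19 of 19 birds below the threshold (difference -0.80, adjusted p = 3.4e-08, limma), though over the cecal arrays its r with *CA4* was 0.87. *MRPS5* and *VSX1* beside *MAL*, *LCMT1*, *ARHGAP17*, *PRKCB* and *MIR1615* beside *AQP8*, and *BCO2* beside *PLET1* had adjusted p between 0.053 and 0.79 from limma. Below the fold threshold, *RCC2* beside *PADI3* (difference 0.35, adjusted p = 0.0012, limma) and *PTS* beside *PLET1* (0.22, adjusted p = 0.042) were higher in the cecum, and *ZMYM2* beside *GJB2* was higher in the jejunum (-0.35, adjusted p = 0.01). *PTS* had r = 0.63 with *PLET1* over the cecal arrays. An r of at least 0.5 was common there, reached by 28.8% of the other named genes with *PLET1* and 31.3% with *CA4* (mean cecal signal of at least 5).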

How the data were processed

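Mucosa of jejunum and cecum from 19 birds was measured on 38 arrays. The authors deposited normalized log2 signals with 2 decimals for 18308 probe sets, made from the scans with the Transcriptome Analysis Console 4.0.1.36. How background was corrected and signals were normalized and summarized is not given in the sources used here. Medians per array were 5.57 to 5.75. Single symbols from the platform annotation were given to 12300 probe sets, several to 256 and none to 5752 (gene IDs of 11727 were found in RefSeq, GRCg7b). Where several probe sets shared a gene, the one of highest mean signal over the 38 arrays stood for it, and all columns of the table were used.

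The genes, the 22 lists (257 of 402 genes measured) and the birds left out were chosen with earlier results of these data known. The comparison of tissues used limma 3.58.1 under R 4.3.3, with tissue as the only term and Benjamini-Hochberg adjustment over all probe sets. Correlations used 100000 permutations (Python 3.11.15, numpy 2.4.6, pandas 2.3.3, plots with matplotlib 3.10.9), adjusted within each family of pairs. List means used genes with a mean cecal signal of at least 5, and the same genes served for the jejunal arrays. Likeness used genes with a mean signal of at least 5 in the tissue concerned. The steps were tested on simulated data.

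Named genes follow a rule: the 6 genes, up to 4 DETs of a list with the largest fold and 2 of the opposite side, the 2 highest genes of families with fewer than 3 DETs, the 3 most like each gene, the 5 with the highest mean r, neighbours, genes with at least the fold of *GJB2*, and the 3 highest markers of a list. *CDX2*, *HNF4G*, *KRT5*, *TFCP2L1*, *MAL2*, *CDH13*, *GPC1*, *AQP4*, *SCNN1G*, *BEST4*, *MEIS1*, *SLC26A5*, *SLC4A9* and *SLC51A* lie outside it and were chosen after their values were seen.

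A number that occurs in both tissues was read as 1 bird, because the methods describe 1 set of subjects for both, although the labels' treatment text speaks of 38 birds. The labels' description field names oxyntic (stomach) mucosa, while titles and tissue labels give jejunum and cecum, which were used. As a check, each array's deviations from its tissue mean were correlated with those of the same bird's other array (mean r 0.114, from -0.133 to 0.411, above 0 in 14 of 19 birds). Alternatives were other normalizations, rank correlation, averaged probe sets, partial correlation, a filter on low signals, TREAT, the bird as a block and leaving out birds.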

Additional observations from a re-analysis of the deposited data

How the results depend on the processing

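The number of cecal pairs that passed was 10 after quantile normalization, after centring arrays on their median, with Spearman's rho, without birds 3 and 19 and given the smooth muscle list, and 5 given the epithelium list. Leaving out each bird in turn gave 8 (without bird 5) to 10, and without birds 3, 5 and 17 there were 9. In the jejunum it was 2 with Spearman's rho, 0 without birds 3 and 19, 0 without birds 8 and 19, and 0 to 1 over single birds (0 without bird 19). The shared level of *PLET1* in both tissues gave 0 to 1 calls over single birds (0 without bird 5). Calls with marker lists numbered 17 without birds 3 and 19 and 7 (without bird 1) to 17 (without bird 3) over single birds. Of the 134 measured genes in the 9 lists of relatives and functions, 22 were DETs of the cecum and 9 of the jejunum. Of all named genes, 4.52% and 4.09% were. Against a null of a 2-fold change (TREAT) the counts were 14 and 7, losing *CDH13*, *GJA1*, *GPC1*, *LGALS3*, *MEIS1*, *SLC26A5*, *SLC4A9*, *SLC51A*, *SLC4A7* and *TMIGD1*. The shares of all named genes under TREAT are not given here. With the bird as a block, which pairs the tissues, the counts of DETs were 22 and 9. The cause was not tested. The difference between tissues of each of the 6 genes moved by less than its SD under every alternative run for it (quantile normalization, centring, averaged probe sets, without birds 3 and 19). Leaving out birds 3, 5 and 17, birds 8 and 19, single birds for the marker lists and for both tissues, single birds for the ranges, and bird 3 in the likeness was chosen after seeing the data. With 19 arrays per tissue, a missing call does not show that genes vary apart, and signals under 5, as those of *MAL* in the jejunum, give a fold with an uncertain base.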

Other observations

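The genes most like each of the 6 over the jejunal arrays differed from those over the cecal arrays, and they are given here as values, chosen after they were seen. For *MAL* and *AQP8* the r of the closest genes was lower without birds 8 and 19, but for *AQP8* not always by much. *HS6ST1* had r = 0.76 with *AQP8*, and 0.68 without both birds. *SUCO*, the gene most like *AQP8*, had 0.83 and 0.49. Values without bird 8 alone were not computed. *RSAD2* and *IFIH1*, which interferon induces in vertebrates, had r = 0.80 and 0.77 with *AQP8*, and *RSAD2* had r = 0.79 with *MAL*, whereas without birds 8 and 19 these values were 0.29, 0.30 and -0.11 (n = 17 birds). The jejunal signal of *RSAD2* was 8.79 in bird 8 against 4.42 to 6.08 in the other 17 birds, and that of *IFIH1* was 8.79 against 6.92 to 7.83. *PLIN2*, a coat protein of lipid droplets and the gene most like *MAL* (r = 0.83), was at 10.77 in bird 8 against 7.99 to 8.90, and its r without birds 8 and 19 was 0.08.

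*PLET1* in the jejunum went with *MUC2*, the main gel-forming mucin of goblet cells (r = 0.79, and 0.86 without birds 8 and 19), although *MUC2* was a DET of the jejunum and *PLET1* is higher in the cecum. *KLF5*, a transcription factor of the intestinal epithelium, had r = 0.78 with it, and 0.78 without both birds. For *CA4* the closest genes were *USP46* (r = 0.88, and 0.90 without birds 8 and 19) and *PKIG* (0.88 and 0.75), and *NOXO1*, a further gene of the cecum, had 0.78 and 0.77. *GJB2* was closest to the folate carrier *SLC19A1* (0.84 and 0.84) and *PADI3* to *ETV1* (0.85 and 0.80). These values carry no test.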
